A study of Mus musculus with 12 samples.

Results

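Near-identical mouse genes in 4 sets were followed through 12 hippocampal RNA-seq libraries. Each set joins a protein-coding gene with 1 or 2 near-identical genes that the GRCm38 annotation lists as pseudogenes: Rpl26 with Gm15772, Tdg with Gm9855, Tmx2 with Gm5499, and Tmem181a with Tmem181b-ps and Tmem181c-ps. The sets hold 9 genes of the 44760 present in the deposited count tables of both ages, 4 of them protein-coding and 5 pseudogenes. They were chosen on measured values, with the difference between nicotine and saline in the 18-month libraries in view, so the 18-month values below describe that choice and carry no test. A further 7 near-identical genes, 6 matching Rpl26 and Gm5597 matching Tdg, averaged at most 0.267 CPM (counts scaled to a library total of 1e6) and are not members. Every member was judged as it stands in the tables and as the summed count of its set.

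The mice were males of the APP/PS1 model on a C57BL/6 background (N9B6), carrying the APPswe and PS1dE9 transgenes, that is, amyloid precursor protein with the Swedish mutation and presenilin 1 without exon 9. Amyloid plaques form in this model with age. All groups carry the transgenes, and no mice without them were analysed here. A pump under the skin gave nicotine hydrogen tartrate (labelled 48 mg/kg/h) or saline for 14 days. The groups were 7-month nicotine, 7-month saline, 18-month nicotine and 18-month saline, with 3 libraries each. The labels do not say whether replicate libraries are separate animals, so p-values measure the spread between these libraries only.

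A processed pseudogene is a spliced messenger RNA that was copied back into the genome, and it therefore lacks the introns of its parent gene. An unprocessed pseudogene arose by duplication of the gene itself and keeps its exon structure. Either kind can stay so close to its parent that a short sequencing read fits both places equally well unless it covers a base that differs, or a stretch that only the gene has. Rpl26 codes for a protein of the large ribosomal subunit that sits near the exit of the peptide tunnel and is a main target of the ubiquitin-like modifier UFM1. Tdg codes for thymine DNA glycosylase, which removes mispaired thymine and the oxidised forms of methylcytosine made by TET enzymes. Tmx2 codes for a thioredoxin-related membrane protein of the endoplasmic reticulum, and Tmem181a for a membrane protein whose human relative is known as a host factor for a bacterial toxin.

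The copies carry few bases that can tell them from their genes. The stretches below lie in the coding sequence, read 5′ to 3′ on the sense strand, with the bases that differ within a set in capitals. They are shown because only reads that cover such bases, or a gap where an alignment has one, separate the members inside the shared sequence. The gene stretches are spliced across exons and the genome span given for each includes the introns. Sequences come from the GENCODE M21 transcripts on GRCm38. The Rpl26 stretch spans exons 2 to 3 (chr11:68902439-68903310, plus strand), and that of Gm15772 lies at chr5:3236595-3236730 (plus strand).
Rpl26: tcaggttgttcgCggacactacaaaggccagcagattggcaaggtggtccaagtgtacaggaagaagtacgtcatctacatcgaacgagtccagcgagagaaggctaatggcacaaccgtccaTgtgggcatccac
Gm15772: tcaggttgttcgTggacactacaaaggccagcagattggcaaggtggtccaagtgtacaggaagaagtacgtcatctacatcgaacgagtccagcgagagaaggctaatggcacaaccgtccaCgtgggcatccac
The Tdg stretch spans exons 9 to 10 (chr10:82648008-82648639, plus strand), and that of Gm9855 lies on the same chromosome at chr10:42054194-42054326 (minus strand).
Tdg: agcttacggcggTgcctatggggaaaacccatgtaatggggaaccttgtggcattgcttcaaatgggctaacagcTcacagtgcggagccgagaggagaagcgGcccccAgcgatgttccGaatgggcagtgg
Gm9855: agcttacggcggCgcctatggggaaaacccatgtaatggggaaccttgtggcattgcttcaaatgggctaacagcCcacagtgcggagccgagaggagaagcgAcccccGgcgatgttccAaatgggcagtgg
The Tmx2 stretch spans exons 5 to 7 (chr2:84673132-84673547, minus strand), and that of Gm5499 lies at chr17:87078771-87078906 (plus strand).
Tmx2: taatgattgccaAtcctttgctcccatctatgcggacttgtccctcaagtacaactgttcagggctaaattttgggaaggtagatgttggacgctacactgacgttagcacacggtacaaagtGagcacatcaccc
Gm5499: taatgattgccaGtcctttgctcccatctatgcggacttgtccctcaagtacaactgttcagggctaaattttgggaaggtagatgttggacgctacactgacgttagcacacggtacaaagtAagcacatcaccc
The Tmem181a stretch spans exons 2 to 3 (chr17:6280607-6286933, plus strand). Those of Tmem181b-ps (chr17:6460704-6467013) and Tmem181c-ps (chr17:6632477-6639781) lie on the minus strand, in exons 1 to 2 of each copy.
Tmem181a: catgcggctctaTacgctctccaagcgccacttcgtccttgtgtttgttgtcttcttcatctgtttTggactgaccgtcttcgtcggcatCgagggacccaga
Tmem181b-ps: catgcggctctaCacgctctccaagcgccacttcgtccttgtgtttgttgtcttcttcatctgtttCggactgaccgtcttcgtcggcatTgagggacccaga
Tmem181c-ps: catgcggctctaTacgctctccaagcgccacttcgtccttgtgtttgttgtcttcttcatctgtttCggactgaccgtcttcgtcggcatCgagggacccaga
In this stretch Tmem181c-ps shares its base with Tmem181a at the first and last of the 3 marked positions and with Tmem181b-ps at the middle position.

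The whole gene of Rpl26 lies at chr11:68901583-68906989 and that of Gm15772, a processed pseudogene of 438 nt, at chr5:3236431-3236868. Over the 438 nt that both share there were 2 differences, C177T and T288C, an identity of 99.54%. In these tokens the first base is that of the gene, the position counts from 1 at the 5′ end of the copy's transcript, and the last base is that of the copy. Both leave the protein sequence as it is, and the frame of 145 codons is open in Gm15772. The longest stretch with no difference was 176 nt.

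Tdg (chr10:82629828-82650799) and its processed copy Gm9855 (chr10:42054113-42055306) differed at 9 of 1194 positions, an identity of 99.25%. Of these differences 4 change a residue, namely E33A, A293T, A362T and S364G, numbered from the start codon of Tdg. The frame of 397 codons is open in Gm9855. A98C apart, the differences lay between positions 855 and 1101, and a stretch of 756 nt before them held none. The Tdg transcript is 2959 nt long, so that much of it has no counterpart in the copy of 1194 nt.

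Tmx2 (chr2:84671316-84679140) and its processed copy Gm5499 (chr17:87078271-87079155) differed at 5 of 885 positions, an identity of 99.44%. None of C46A, T267C, A513G, G624A and G744A changes the protein, and all 295 codons are open. Tmem181a (chr17:6256860-6308314), Tmem181b-ps (chr17:6438524-6467022) and Tmem181c-ps (chr17:6613753-6639790) are neighbours on chromosome 17. Tmem181b-ps is annotated as a transcribed unprocessed pseudogene and Tmem181c-ps as an unprocessed pseudogene. Tmem181a differed from Tmem181b-ps at 7 of 1413 aligned positions (identity 99.5%) and from Tmem181c-ps at 9 of 1343 (identity 99.33%), gaps not counted. The alignments of Tmem181a held 2 gap columns with Tmem181b-ps and 5 with Tmem181c-ps. That with Tmem181c-ps came in 2 blocks, over 1343 of the 1386 nt of the copy. Whether a frame is open in these copies was not examined. The copies differed from each other at 7 of 1320 positions (identity 99.47%). How reads that fit several places were counted, the read length and the strand setting are not given in the sources used here, so the values of single members are uncertain. The spans of Glt8d2, Med19 and Dynlt1a overlap those of Tdg, Tmx2 and Tmem181a, and without strand their reads cannot be told apart there. Tmem181b-ps lies within the span of Gm26848, and the same holds for it.

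**Figure D1:**
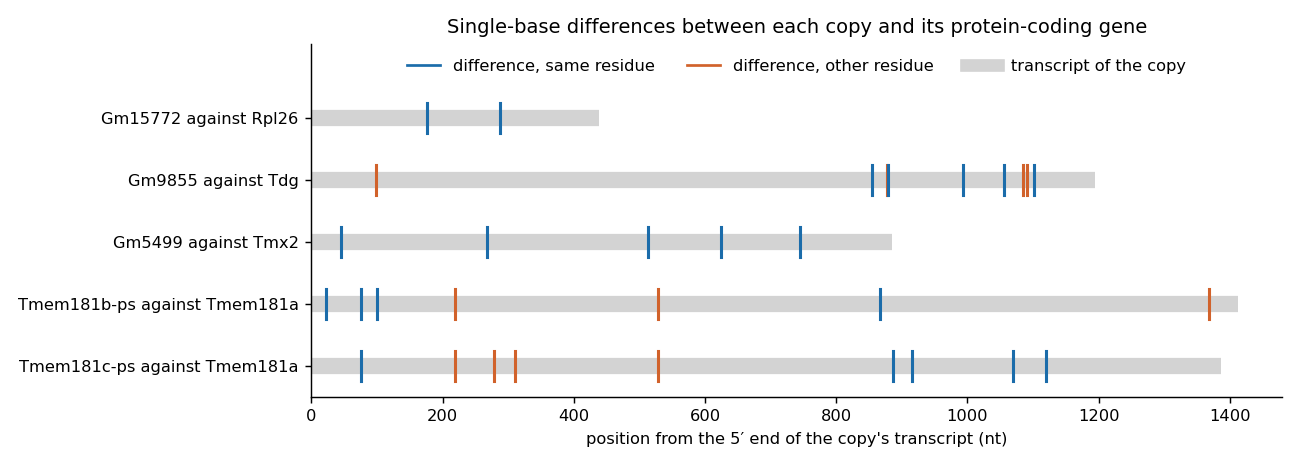
Positions of single-base differences between each copy and its protein-coding gene, in nt from the 5′ end of the copy's transcript (grey bar). Blue ticks keep the residue and orange ticks change it, each base being read alone in the frame of the gene. Gaps, found in the alignments of the Tmem181 copies, are neither drawn nor taken into that frame. Gm15772 has 2 ticks over 438 nt, Gm9855 has 9 over 1194 nt, and Tmem181b-ps has 7 over 1413 nt.

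The 7-month libraries held 25071195 to 29245972 counts each, the 18-month libraries 21260068 to 23715015. Levels are given in CPM, the gene's counts scaled to the library's total. On the first principal component (74.3% of the variance, 14497 genes) 7-month saline library 2 stood apart, at 4.39, from the rest of its age (-52.6 to -44.1) and from the 18-month libraries (37.4 to 40.7). All 6 markers of hippocampal neurons were above 0 in every library. Both microglia markers (Cx3cr1 and P2ry12) and both choroid plexus markers (Ttr and Kl) were also above 0 in every library. Summed microglia markers were 82.0 to 90.6 CPM in 18-month nicotine libraries, against 101 to 107 CPM in 18-month saline libraries, and their part in the results below was not tested. Summed choroid plexus markers overlapped between infusions at both ages. They were 20.2 to 1443 CPM in 18-month nicotine libraries, against 18.7 to 84.9 CPM in 18-month saline libraries. At 7 months they were 52.2 to 5944 CPM in nicotine libraries, against 118 to 1518 CPM in saline libraries. Their part was not tested either. Summed pituitary markers (Gh and Prl) were 0.311 to 103 CPM in 7-month nicotine libraries, against 0.0399 to 0.547 CPM in 7-month saline libraries, and at most 0.439 CPM at 18 months. Those of astrocytes and meninges overlapped between infusions at both ages. The part of none of these in the results was tested. In bulk tissue, fewer cells of a type and less RNA per cell cannot be told apart.

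The question put to the 7-month libraries, which the choice of members did not use, was whether nicotine changed any member or any summed set. No member and no sum passed. With edgeR's quasi-likelihood test over the whole table and Benjamini-Hochberg adjustment, 0 of the 9 members had an adjusted p at or under 0.05, where 2 of 17596 genes tested did (0.0114%). All 9 members had passed the filter on low counts. DESeq2 also called 0 of the 9, and 0 had an unadjusted p under 0.05. With the sets summed, 0 of the 4 sums passed, against 2 of 17591 rows (0.0114%), with 0 by DESeq2 and 0 at an unadjusted p under 0.05. The genes that passed in both tables were Plin4 and Egr2, named here after their values were seen. The infusions were fully apart in 0 of the 9 members, and in 16.8% of the 17596 genes.

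Rpl26 had 72.0, 197 and 64.3 CPM in 7-month nicotine libraries 1 to 3, against 69.4, 122 and 63.1 CPM in 7-month saline libraries 1 to 3. Gm15772 had 293, 144 and 258 CPM in 7-month nicotine libraries, against 294, 79.5 and 264 CPM in 7-month saline libraries. In both infusions library 2 was the one with high Rpl26 and low Gm15772, and the other 4 libraries lay close together. The fold change of Rpl26 was 0.41 on the log2 scale (SE 0.46, adjusted p = 0.728, edgeR), and that of Gm15772 was 0.14 (SE 0.46, adjusted p = 0.912, edgeR). Without nicotine library 2 the fold change of Rpl26 was -0.31, and without saline library 2 that of Gm15772 was -0.26.

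The summed count of Rpl26 and Gm15772 was 364, 342 and 322 CPM in 7-month nicotine libraries, against 363, 202 and 327 CPM in 7-month saline libraries. Saline library 2 was low, and the other 5 libraries lay within a narrow range across both infusions. The sum differed by 0.22 on the log2 scale (SE 0.20, adjusted p = 0.686, edgeR), and by 0.01 without saline library 2. Among the 6 libraries the highest Gm15772 value was 3.70 times the lowest, and the highest sum was 1.80 times the lowest.

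At 18 months the same members separated by infusion. Rpl26 had 24.5, 27.3 and 22.4 CPM in 18-month nicotine libraries, against 65.5, 66.2 and 59.9 CPM in 18-month saline libraries. Gm15772 had 104, 99.8 and 98.5 CPM in 18-month nicotine libraries, against 51.3, 55.6 and 51.9 CPM in 18-month saline libraries. Rpl26 was lower and Gm15772 higher in every nicotine library, with log2 fold changes of -1.36 (SE 0.08) and 0.94 (SE 0.05). Their sum was 128, 127 and 121 CPM in nicotine libraries, against 117, 122 and 112 CPM in saline libraries. The summed groups overlapped, at a log2 fold change of 0.11 (SE 0.05).

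The division of the set's counts between its members showed the pattern most directly. Gm15772 took 80.3%, 42.2% and 80.0% of the counts in 7-month nicotine libraries, against 80.9%, 39.3% and 80.7% in 7-month saline libraries. It took 80.9%, 78.5% and 81.5% in 18-month nicotine libraries, against 43.9%, 45.6% and 46.4% in 18-month saline libraries. The values thus fell between 78.5% and 81.5% or between 39.3% and 46.4%, with none outside these ranges in any of the 12 libraries. Both levels occurred under both infusions at 7 months, while at 18 months each infusion had a single level. Wilson 95% intervals of these shares were at most 3.9 percentage points wide and cover counting error only. A share compares counts, not levels per length, and so does not say which member is expressed more.

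Tdg had 17.4, 5.52 and 5.67 CPM in 7-month nicotine libraries, against 6.19, 20.3 and 18.9 CPM in 7-month saline libraries. Its copy Gm9855 had 11.1, 25.1 and 22.4 CPM in 7-month nicotine libraries, against 24.2, 9.97 and 11.7 CPM in 7-month saline libraries. Nicotine library 1 resembled saline libraries 2 and 3, and saline library 1 resembled nicotine libraries 2 and 3, so both members overlapped between infusions. Log2 fold changes were -0.66 for Tdg (SE 0.56, adjusted p = 0.673, edgeR) and 0.38 for Gm9855 (SE 0.40, adjusted p = 0.718, edgeR). With 1 library left out they ran from -1.41 (without nicotine library 1) to -0.39 (without nicotine library 2) for Tdg, and from 0.15 (without either number 2 library) to 0.86 (without saline library 1) for Gm9855. The sum was nearly constant, with 28.6, 30.7 and 28.0 CPM in nicotine libraries, against 30.4, 30.3 and 30.6 CPM in saline libraries. The sum gave a log2 fold change of -0.05 (SE 0.10, adjusted p = 0.849, edgeR).

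At 18 months Tdg had 28.8, 18.0 and 19.5 CPM in nicotine libraries, against 8.30, 8.00 and 8.14 CPM in saline libraries. Gm9855 had 0.380, 8.47 and 9.02 CPM in nicotine libraries, against 15.8, 14.8 and 14.8 CPM in saline libraries. Tdg was higher and Gm9855 lower in every nicotine library, and nicotine library 1 stood apart, with 9 counts on Gm9855 and 682 on Tdg. Log2 fold changes were 1.45 for Tdg (SE 0.17) and -1.35 for Gm9855 (SE 0.62). Without nicotine library 1 they were 1.21 and -0.78. The sum was 29.1, 26.4 and 28.5 CPM in nicotine libraries, against 24.1, 22.8 and 22.9 CPM in saline libraries. These groups did not overlap, at a log2 fold change of 0.28 (SE 0.07), a difference that summing reduced and did not remove.

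Gm9855 took 38.9%, 82.0% and 79.8% of its set's counts in 7-month nicotine libraries, against 79.6%, 32.9% and 38.2% in 7-month saline libraries. It took 1.30%, 32.0% and 31.6% in 18-month nicotine libraries, against 65.5%, 64.9% and 64.5% in 18-month saline libraries. Each level at 7 months was again found under both infusions, but in other libraries than for Gm15772. Saline library 2, for example, was low in the share of both copies, while nicotine library 2 was low for Gm15772 and high for Gm9855. The counts behind a share were fewest in this set, and its Wilson 95% intervals were up to 8.50 percentage points wide.

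In the Tmx2 set nearly all counts fell on the gene. Tmx2 had 191, 187 and 169 CPM in 7-month nicotine libraries, against 185, 155 and 173 CPM in 7-month saline libraries. The fold change was 0.11 on the log2 scale (SE 0.11, adjusted p = 0.695, edgeR). Gm5499 had 0.345, 0.738 and 17.9 CPM in 7-month nicotine libraries, against 0.786, 22.6 and 0.471 CPM in 7-month saline libraries. Nicotine library 3 and saline library 2 held nearly all of its counts, and the remaining libraries had 10 to 23 counts each. Its fold change of -0.29 (SE 1.63, adjusted p = 0.949, edgeR) was 3.34 without saline library 2 and -3.85 without nicotine library 3.

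The libraries with high Gm5499 had the lowest Tmx2 values of their infusion, and the sum evened out. It was 191, 188 and 187 CPM in 7-month nicotine libraries, against 186, 177 and 174 CPM in 7-month saline libraries. The highest Gm5499 value was 65.5 times the lowest, and the highest sum 1.10 times the lowest. The sum is mostly Tmx2, whose own highest value was 1.24 times the lowest. Every nicotine sum lay above every saline sum, but the difference of 0.10 on the log2 scale did not pass the test (SE 0.09, adjusted p = 0.681, edgeR).

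At 18 months Tmx2 had 133, 132 and 124 CPM in nicotine libraries, against 129, 126 and 123 CPM in saline libraries. Gm5499 had 1.52, 1.67 and 1.27 CPM in nicotine libraries, against 6.59, 7.38 and 7.04 CPM in saline libraries. The gene overlapped between infusions and the copy did not, being lower in each nicotine library. The log2 fold changes were 0.05 (SE 0.05) for Tmx2 and -2.22 (SE 0.15) for Gm5499, and -0.01 (SE 0.05) for their sum. Gm5499 took 1.01% to 1.25% of the set's counts in 18-month nicotine libraries, against 4.87% to 5.53% in 18-month saline libraries. At 7 months it took 9.55% in nicotine library 3 and 12.7% in saline library 2, and 0.180% to 0.423% in the other libraries.

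In the Tmem181 set most counts fell on the copy Tmem181b-ps. Tmem181a had 21.1, 23.1 and 22.5 CPM in 7-month nicotine libraries, against 22.0, 55.3 and 20.1 CPM in 7-month saline libraries. Tmem181b-ps had 161, 224 and 173 CPM in 7-month nicotine libraries, against 182, 261 and 161 CPM in 7-month saline libraries. Tmem181c-ps had 26.4, 81.6 and 27.0 CPM in 7-month nicotine libraries, against 27.8, 18.1 and 25.5 CPM in 7-month saline libraries. The number 2 libraries again stood apart, nicotine library 2 by its Tmem181c-ps and saline library 2 by its Tmem181a, and both by high Tmem181b-ps. Log2 fold changes were -0.52 (SE 0.36, adjusted p = 0.656), -0.09 (SE 0.21, adjusted p = 0.860) and 0.94 (SE 0.45, adjusted p = 0.656) for Tmem181a, Tmem181b-ps and Tmem181c-ps by edgeR. Without saline library 2 that of Tmem181a was 0.10, and without nicotine library 2 that of Tmem181c-ps was 0.17.

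The sum of the 3 members was 209, 329 and 222 CPM in 7-month nicotine libraries, against 232, 335 and 206 CPM in 7-month saline libraries. Library 2 of each infusion was high. The log2 fold change of the sum was 0.00 (SE 0.23, adjusted p = 0.997, edgeR), with -0.25 without nicotine library 2 and 0.23 without saline library 2.

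At 18 months Tmem181a had 70.4, 69.2 and 65.9 CPM in nicotine libraries, against 60.8, 62.0 and 66.1 CPM in saline libraries. Tmem181b-ps had 271, 279 and 269 CPM in nicotine libraries, against 206, 223 and 240 CPM in saline libraries. Tmem181c-ps had 42.5, 47.2 and 45.0 CPM in nicotine libraries, against 9.67, 10.6 and 12.2 CPM in saline libraries. Both copies were higher in every nicotine library, and the gene overlapped. Log2 fold changes were 0.13 (SE 0.05) for Tmem181a, 0.30 (SE 0.06) for Tmem181b-ps and 2.06 (SE 0.09) for Tmem181c-ps. The sum was 384, 395 and 379 CPM in nicotine libraries, against 276, 296 and 318 CPM in saline libraries. Here the summed groups did not overlap either, at a log2 fold change of 0.39 (SE 0.06), and the difference in summed counts was larger than all the counts of Tmem181c-ps.

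Tmem181c-ps took 12.6%, 24.8% and 12.1% of the set's counts in 7-month nicotine libraries, against 12.0%, 5.42% and 12.3% in 7-month saline libraries. It took 11.1%, 11.9% and 11.9% in 18-month nicotine libraries, against 3.50%, 3.58% and 3.85% in 18-month saline libraries. The 18-month nicotine share was thus close to that of 4 of the 7-month libraries, and the low share of the 18-month saline libraries was nearest to that of 7-month saline library 2. Tmem181b-ps held most counts in all 12 libraries, from 68.2% to 78.6%.

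**Figure D2:**
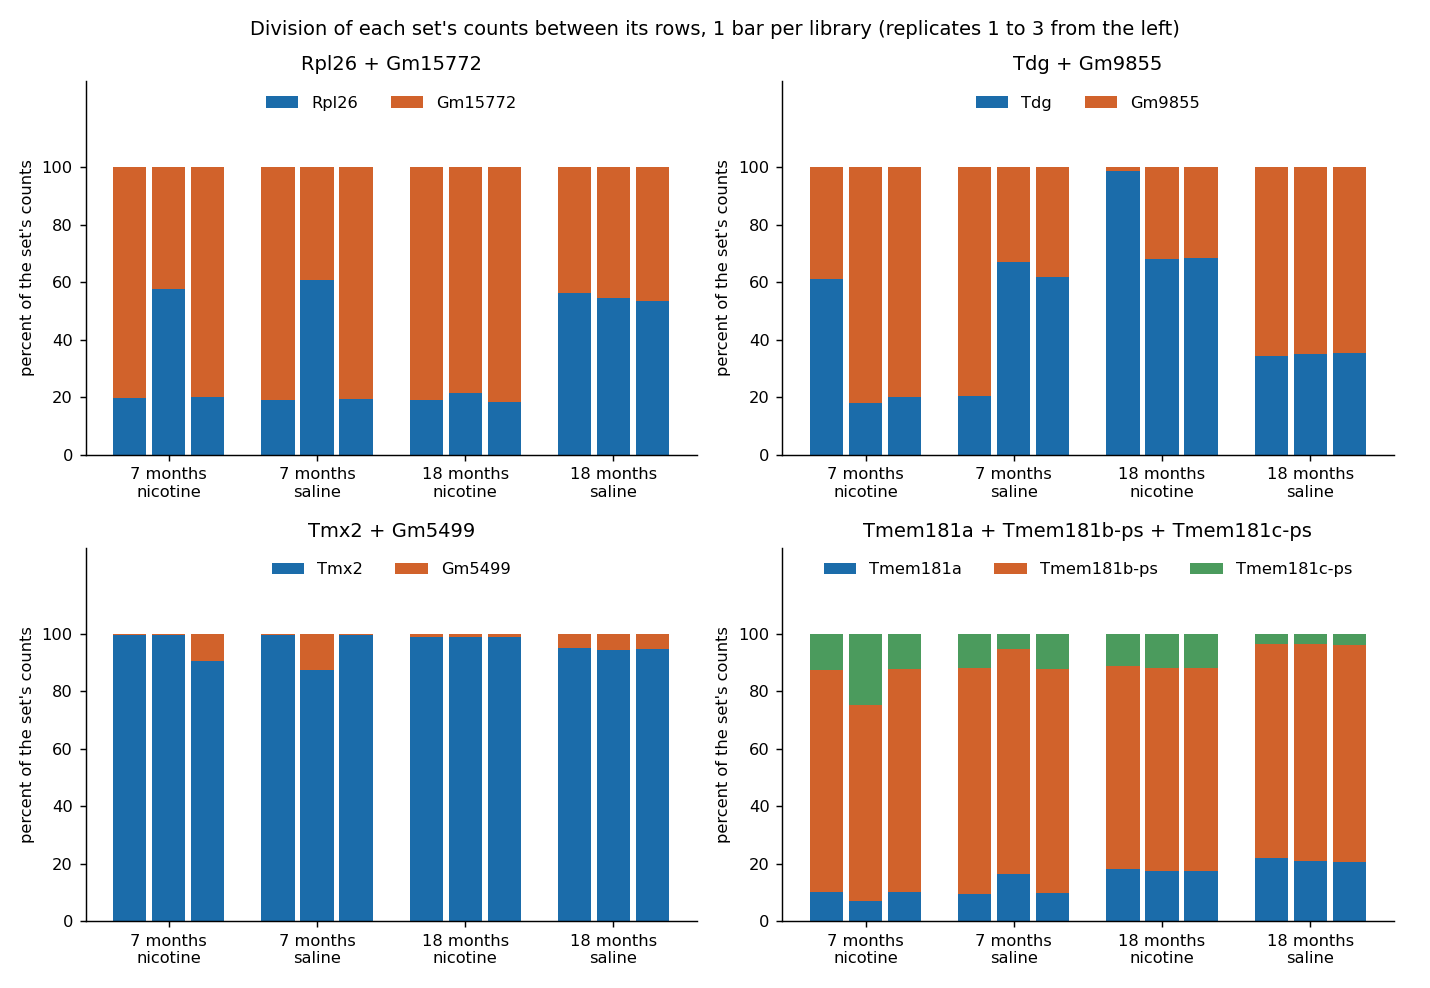
Share of each set's counts on each member (percent, stacked to 100), with 1 bar per library and nicotine left of saline at each age. At 7 months the bars of 1 infusion differ among themselves, as with Gm15772 at 42.2% against 80.3% and 80.0% under nicotine, whereas at 18 months the 3 bars of an infusion are alike except for Gm9855 in nicotine library 1 (1.30%).

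Exact permutation of the share of each member between infusions at 7 months (two-sided, 3 against 3) gave p = 1 for Rpl26 and Gm15772, p = 0.2 for Tdg, Gm9855 and Tmem181c-ps, and p = 0.6 for Tmx2, Gm5499 and Tmem181a. Exact permutation for Tmem181b-ps gave p = 0.1, the smallest p that 3 against 3 libraries allow, with 77.2%, 68.2% and 77.7% in nicotine libraries, against 78.6%, 78.1% and 77.9% in saline libraries. No share could therefore pass at 0.05 in this design. In the 18-month libraries, which chose the members, 7 of the 9 had infusions that were fully apart, 4 higher and 3 lower under nicotine, beside 11.4% of the 18196 genes; nothing is read from that count. Over the whole table as deposited 8 of 18196 genes passed at 18 months (0.044%), and since this contrast chose the members, nothing is read from their part in it.

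**Figure D3:**
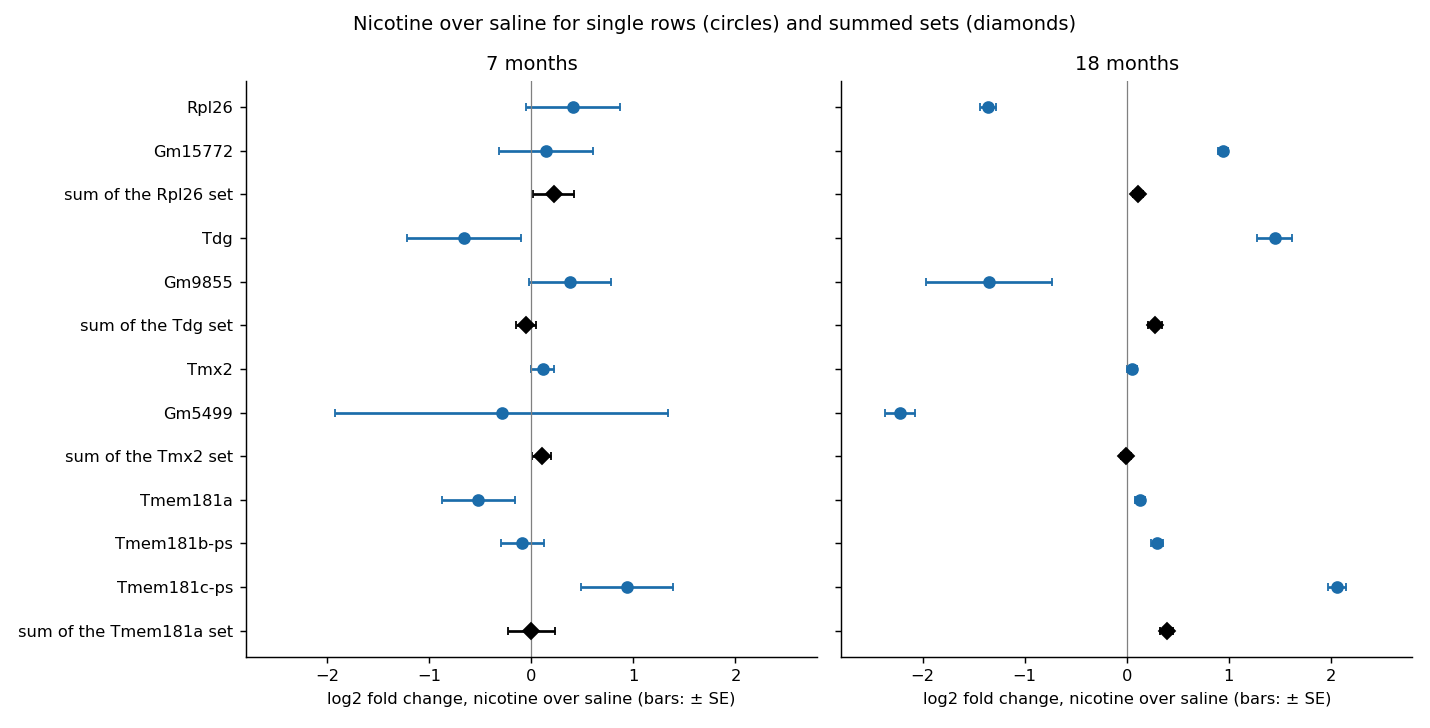
Log2 fold change of nicotine over saline (x axis, bars are ± SE) for the single members (circles) and the summed sets (diamonds), at 7 months on the left and 18 months on the right. At 18 months single members lie between -2.22 and 2.06 and the sums between -0.01 and 0.39; at 7 months the sums lie between -0.05 and 0.22.

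Label descriptions of the 7-month libraries carry 2 different prefixes, the first on library 1 of each infusion and the other on libraries 2 and 3; their meaning is not given in the sources used here. Within libraries 2 and 3, 2 against 2, the log2 fold changes of the sums were 0.35 for Rpl26 with Gm15772, -0.03 for Tdg with Gm9855, 0.12 for Tmx2 with Gm5499 and 0.06 for the Tmem181 set. Those of single members ran from -1.78 for Tdg to 1.34 for Tmem181c-ps, with 0.24 for Gm15772, 0.14 for Tmx2 and -0.06 for Tmem181b-ps. The pair of number 1 libraries, with 1 library per infusion, gives no test, and its values stand above as library 1 of each infusion. In that pair Tdg was 17.4 CPM under nicotine and 6.19 CPM under saline, the opposite order to that of the pooled fold change.

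Ages were compared as a description, since the ages were deposited as separate tables and age cannot be told apart from the preparation and sequencing of each age. The sum of Rpl26 and Gm15772 averaged 125 ± 4.02 CPM at 18 months and 343 ± 21.3 CPM at 7 months under nicotine (SD, n = 3 each). Under saline it averaged 117 ± 4.92 CPM at 18 months and 297 ± 84.6 CPM at 7 months (SD, n = 3 each). It was lower at 18 months in every library, with log2 fold changes of -1.47 (SE 0.17) under nicotine and -1.37 (SE 0.17) under saline. From high to low the group means ran 7-month nicotine, 7-month saline, 18-month nicotine and 18-month saline, and neighbours overlapped within an age.

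The sum of Tmx2 and Gm5499 was also lower at 18 months in every library. It averaged 131 ± 4.99 CPM at 18 months and 189 ± 2.26 CPM at 7 months under nicotine, and 133 ± 2.49 CPM at 18 months and 179 ± 6.20 CPM at 7 months under saline (SD, n = 3 each). The log2 fold changes were -0.55 (SE 0.07) under nicotine and -0.44 (SE 0.07) under saline. The sum of Tdg and Gm9855 averaged 28.0 ± 1.42 CPM at 18 months and 29.1 ± 1.40 CPM at 7 months under nicotine, where the ages overlapped. Under saline it averaged 23.2 ± 0.720 CPM at 18 months and 30.4 ± 0.187 CPM at 7 months, and the 18-month libraries were all lower.

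The Tmem181 set went the other way. Its sum averaged 386 ± 8.04 CPM at 18 months and 253 ± 65.7 CPM at 7 months under nicotine, with every 18-month library higher, at a log2 fold change of 0.58 (SE 0.18). Under saline it averaged 297 ± 20.9 CPM at 18 months and 258 ± 68.0 CPM at 7 months, and the ages overlapped at a log2 fold change of 0.20 (SE 0.18). Tmem181a alone averaged 68.5 ± 2.37 CPM at 18 months and 22.2 ± 1.00 CPM at 7 months under nicotine, and 63.0 ± 2.78 CPM at 18 months and 32.5 ± 19.8 CPM at 7 months under saline. It was higher in every 18-month library of either infusion. Rpl26 alone had log2 fold changes for age of -2.20 (SE 0.38) under nicotine, or -1.47 without 7-month nicotine library 2, and -0.42 (SE 0.36) under saline; whether these differ was not tested.

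**Figure D4:**
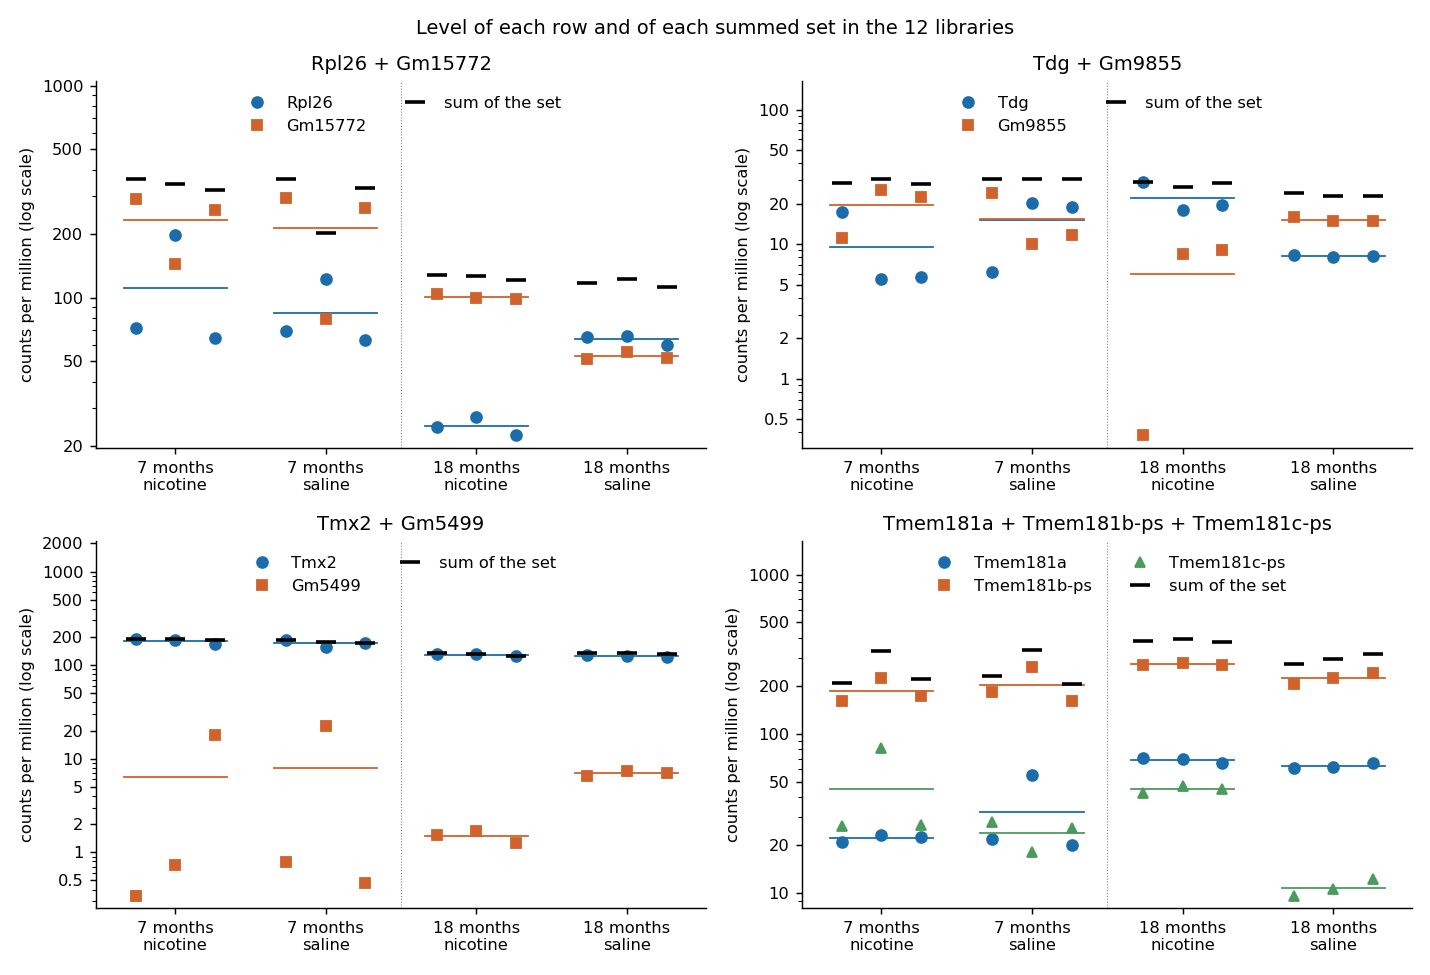
Level of each member (coloured points) and of each summed set (black bars) in CPM on a log axis, with 1 column of points per library, nicotine left of saline at each age and thin lines at the group means of members. The sum of Tdg and Gm9855 stays between 22.8 and 30.7 CPM over the 12 libraries while Gm9855 itself ranges from 0.380 to 25.1 CPM.

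Other genes that share a pathway with the protein-coding members were tested in the same fits, from lists that leave the members out. Of 46 other large ribosomal subunit genes measured, 0 passed at 7 months by edgeR (1 at an unadjusted p under 0.05, 0 by DESeq2). All 46 had a fold change above 0, with a median of 0.27 on the log2 scale beside -0.01 over all genes tested. Without 7-month saline library 2 the median was 0.07 and 42 were above 0. Rpl29 averaged 226 ± 2.65 CPM under nicotine and 150 ± 49.4 CPM under saline (log2 fold change 0.61, SE 0.20, adjusted p = 0.656, edgeR, n = 3 each). At 18 months 0 of the 46 passed (2 at an unadjusted p under 0.05, 0 by DESeq2), 35 were above 0 and the median was 0.02. The smallest p at that age was that of Rpl21, with 188 ± 16.4 CPM under nicotine and 163 ± 2.99 CPM under saline (log2 fold change 0.22, SE 0.07, adjusted p = 0.613, edgeR).

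Of the genes for UFM1 conjugation, the modification that Rpl26 protein receives, 8 of 9 were measured and 0 passed at either age by edgeR or DESeq2, with 0 at an unadjusted p under 0.05. Ufc1, the conjugating enzyme, averaged 76.1 ± 7.06 CPM under nicotine and 63.6 ± 17.0 CPM under saline at 7 months, and 42.7 ± 1.18 CPM under nicotine and 39.8 ± 2.44 CPM under saline at 18 months. The base excision repair and active demethylation genes, among which Tdg works, had 20 of 21 measured and 0 passing at either age by edgeR or DESeq2. At an unadjusted p under 0.05 there were 0 at 7 months and 1 at 18 months. Tet3 codes for an enzyme that oxidises methylcytosine to forms that the Tdg protein removes. It averaged 34.5 ± 1.81 CPM under nicotine and 45.1 ± 13.1 CPM under saline at 7 months (log2 fold change -0.37, SE 0.19, adjusted p = 0.656, edgeR). Neil1, a glycosylase for oxidised bases, averaged 8.66 ± 0.097 CPM under nicotine and 10.5 ± 1.03 CPM under saline at 18 months (log2 fold change -0.26, SE 0.10, adjusted p = 0.667, edgeR).

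Thioredoxin-related and disulfide-forming genes of the endoplasmic reticulum, the company of Tmx2, had 19 of 21 measured and 0 passing at either age by edgeR or DESeq2. At an unadjusted p under 0.05 there were 1 at 7 months and 2 at 18 months. Qsox1, a sulfhydryl oxidase, averaged 40.7 ± 5.87 CPM under nicotine and 31.9 ± 0.463 CPM under saline at 7 months (log2 fold change 0.37, SE 0.14, adjusted p = 0.656, edgeR). Pdia4, a disulfide isomerase, averaged 48.8 ± 5.84 CPM under nicotine and 42.5 ± 1.55 CPM under saline at 18 months (log2 fold change 0.21, SE 0.08, adjusted p = 0.686, edgeR). Of 7 membrane proteins with a layout like that of TMEM181, 0 passed at either age by edgeR or DESeq2, with 1 at an unadjusted p under 0.05 at each age. Among them Wls, the carrier of Wnt proteins to the cell surface, averaged 15.5 ± 3.36 CPM under nicotine and 21.4 ± 3.10 CPM under saline at 7 months (log2 fold change -0.45, SE 0.18, adjusted p = 0.656, edgeR).

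The genes that lie next to the members on the chromosome were measured in the same way. Of 18 neighbours, 0 passed at either age by edgeR, with 3 at 7 months and 5 at 18 months at an unadjusted p under 0.05. DESeq2 called 0 at 18 months and 1 at 7 months, Ezr, which codes for a linker of membrane and actin and lies 98251 nt from Tmem181c-ps. Ezr had a log2 fold change of 0.40 (SE 0.10, adjusted p = 0.656, edgeR) at 7 months and 0.25 (SE 0.06, adjusted p = 0.440, edgeR) at 18 months. The infusions were fully apart in 4 of the 18 neighbours at 7 months and in 8 at 18 months, beside the 16.8% and 11.4% of all genes given above. Fold changes of the neighbours at 18 months lay between -0.15 and 0.51 on the log2 scale. Glt8d2, whose span overlaps Tdg, gave 0.37 (SE 0.10, adjusted p = 0.519, edgeR) at 18 months, and Hcfc2, the next gene after Tdg, 0.20 (SE 0.07, adjusted p = 0.649, edgeR). At 7 months Glt8d2 gave -0.26 (SE 0.22, adjusted p = 0.675, edgeR) and Hcfc2 -0.50 (SE 0.15, adjusted p = 0.656, edgeR). Hcfc2 was then lower in every nicotine library.

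Over all 12 libraries, and with the mean of each age taken off, the genes most like a member in log2 CPM were found among 12934 genes. The correlations are descriptions that include the 18-month libraries on which the members were chosen. Each is among the highest of 12934 over 12 libraries, so it can be high through the search alone, and none was tested. The gene most like Rpl26 was Glp2r, the receptor for glucagon-like peptide 2 (Pearson r = 0.911, 12 libraries). It lies 1130430 nt from Rpl26 on chromosome 11, and the part of position was not tested. Glp2r had 0.690, 5.67 and 1.10 CPM in 7-month nicotine libraries, against 0.786, 3.27 and 0.762 CPM in 7-month saline libraries, with library 2 high in both as for Rpl26. At 18 months it averaged 1.16 ± 0.231 CPM under nicotine and 3.19 ± 1.00 CPM under saline (SD, n = 3 each), and the groups did not overlap. Lhfpl4 (r = 0.909) and Ube2v1 (r = 0.890) followed, on chromosomes 6 and 2. A correlation takes no account of the size of a change. The log2 fold changes at 18 months were -0.05 (SE 0.05) for Lhfpl4 and -0.12 (SE 0.06) for Ube2v1, beside -1.36 for Rpl26.

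For Tmem181c-ps the most alike genes were Ncbp1 (r = 0.947), which codes for the large subunit of the nuclear cap-binding complex, Tagap (r = 0.879) and Rasip1 (r = 0.862). Tagap, which codes for a GTPase-activating protein of T cells, lies 1286210 nt from Tmem181c-ps on chromosome 17. It had 2.10, 4.74 and 1.59 CPM in 7-month nicotine libraries, against 1.98, 2.11 and 2.50 CPM in 7-month saline libraries, with nicotine library 2 high as for Tmem181c-ps. At 18 months Tagap averaged 4.42 ± 0.582 CPM under nicotine and 2.57 ± 0.285 CPM under saline (SD, n = 3 each). Gm15772 was most like Utp11l (r = 0.939), Ier5l (r = 0.932) and Zfp511 (r = 0.931). Tdg was most like Tmx1 (r = 0.906), Zfp955a (r = 0.887) and Trappc2 (r = 0.877). Gm5499 was most like Brd2 (r = 0.897), Myh6 (r = 0.879) and Pcnxl3 (r = 0.878). Brd2 lies 52955637 nt from Gm5499 on chromosome 17. Glp2r, Tagap and Brd2 apart, no most alike gene with a known position lay on its member's chromosome.

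Other near-identical genes were taken by sequence alone to show how often members of a pair part in opposite directions. Pairs had transcripts that matched along at least 400 nt with an identity of at least 99%, and spans that do not overlap in the genome. Of 245 such pairs with both genes tested at 18 months, 3 (1.22%) had groups that did not overlap in either gene and lay in opposite directions, and of 210 pairs at 7 months 0 did. Taken singly, 7.64% of the genes in these pairs had infusions fully apart at 18 months and 10.1% at 7 months, both below the shares over all genes. Among pairs that summed to 10 CPM or more, the division of counts ranged over 20 percentage points or more across the 6 libraries in 8 of 211 pairs at 18 months and in 11 of 170 at 7 months. A pair with nearly all its counts on 1 gene in every library can range only little, and such pairs were not set apart. Among the members, the range over the 6 libraries at 18 months was 37.5 points for Gm15772, 64.2 for Gm9855, 4.52 for Gm5499 and 8.44 for Tmem181c-ps. The members were chosen on their difference at that age, so nothing is read from these ranges beside those of other pairs. At 7 months it was 41.6 points for Gm15772, 49.1 for Gm9855, 12.6 for Gm5499 and 19.4 for Tmem181c-ps. Gm5499 thus stayed under 20 points at both ages. Tmem181c-ps did so only as a share of its whole set. That measure is unlike the share within a pair, which was not computed for it.

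The pairs named next were chosen after their values were seen. A pair outside the sets that was divided differently by infusion at 18 months was Capza1, a gene for a subunit of the actin capping protein, with its near-identical partner Gm3608. The share of the first gene differed by 17.7 percentage points between nicotine and saline at 18 months, its range over the 6 libraries was 27.6 points, and the groups did not overlap. At 7 months the range was 41.7 points and the groups overlapped. Tagap and its near-identical relative Tagap1 also parted in opposite directions at 18 months, by 9.11 points, and overlapped at 7 months. Some pairs divided their counts unevenly between libraries with both infusions overlapping at either age, such as the alpha globin genes Hba-a1 and Hba-a2, with a range of 25.7 points at 18 months and 22.0 points at 7 months.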

How the data were processed

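Hippocampal RNA-seq of 12 libraries (4 groups of 3) was analysed. The authors deposited gene counts without normalization, in a separate table for each age, as the values show (whole numbers with a different total in each library). Reads were aligned with TopHat to GRCm38, per the submitters' processing notes; the counter, the annotation and the strand setting are not given in the sources used here. The labels' protocols describe a small RNA kit, while the counts cover mRNA. All count columns matched a label (0 columns without a sample). The tables hold 44788 (7 months) and 44786 (18 months) genes. Depth limits single members most where counts are few, as for Gm5499.

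Members, lists and tests were chosen with earlier results of these data known. Whole tables were fitted with edgeR 4.0.16 in R 4.3.3 (TMM, filterByExpr, quasi-likelihood F-test, Benjamini-Hochberg at 0.05), once as deposited and once with each set summed. Nicotine and saline were compared in the 6 libraries of an age, ages in all 12. SE is the absolute log2 fold change over the square root of F. Shares have Wilson 95% intervals and, at 7 months, exact permutation. The procedure was tested on simulated 7-month data. It recovered 46.9% of 2-fold changes and 90.9% of 4-fold changes, and 6.21% of the genes called were false. The simulated data held no library that stood apart across genes and no summed set. These rates therefore need not hold for the members and sums. Transcripts were compared with BLAST 2.17.0. Likeness used log2(CPM + 0.5). Named genes were the members, their nearest neighbours of at least 1 CPM and genes whose span holds a member, up to 2 genes of smallest p per list and age, and the 3 genes without a predicted name most like each of 5 members. Replicates differed beyond counting error (chi-square per degree of freedom 6.89 to 106). Alternatives were RLE factors, no filter, DESeq2 1.42.0, a replicate block, leaving out each library, leaving out both number 1 libraries at 7 months, all 12 libraries in 1 fit, wider sums and looser pairs. Tables and figures used Python 3.11.15, pandas 2.3.3, scipy 1.17.1 and matplotlib 3.10.9.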

Additional observations from a re-analysis of the deposited data

How the results depend on the processing

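Over the alternatives run, fold changes of the members, sums and named list genes at 7 months kept direction and side of the threshold in 263 cases and changed sign in 17. For members and sums at 18 months and for age, no threshold was read, and direction and size alone were compared. At 18 months 253 cases kept their direction and 4 changed sign. For age 245 stayed within the spread between replicates, 11 moved beyond it and 12 changed sign. Shares kept their direction in 50 cases and changed it in 6. The cause of these changes was not tested, beyond the library left out in each.

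The Tmem181 sum at 7 months (log2 fold change 0.00) was 0.00 with RLE factors, 0.01 with no filter, 0.00 by DESeq2, 0.02 in 1 fit of all 12 libraries and 0.06 without both number 1 libraries, and -0.25 to 0.23 with 1 library left out. At 7 months, leaving out 1 library gave -0.31 to 0.77 for Rpl26, -0.26 to 0.42 for Gm15772, -3.85 to 3.34 for Gm5499, -0.76 to 0.10 for Tmem181a and -0.26 to 0.13 for Tmem181b-ps. It gave -13.3 to 13.2 percentage points for the share of Gm15772 and -4.19 to 3.03 for that of Gm5499. Adjusted p-values of the sums at 7 months were 0.410 to 0.998 over all alternatives, and the lowest for a single member was 0.311. The Tmx2 sum at 18 months was 0.00 with no filter and in 1 fit of all 12 libraries, and -0.03 to 0.02 with 1 library left out.

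For age, Gm5499 under nicotine ran from -2.68 to 1.45 with 1 library left out, and under saline from -0.70 to 3.46, with 0.45 under a replicate block. Tmem181c-ps under nicotine was 0.01 with RLE factors, 0.00 by DESeq2, 0.06 under the block and -0.31 to 0.74 with 1 library left out. Gm9855 under saline was 0.01 with RLE factors, 0.02 by DESeq2 and -0.24 to 0.45 with 1 library left out.

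Counts of genes called moved more. At 7 months the 2 genes became 6 with no filter, 83 by DESeq2, 1 under the replicate block, 9 (genes as deposited) or 12 (sets summed) in 1 fit of all 12 libraries, and 0 to 2 with 1 library left out. With genes as deposited, edgeR called 0 without nicotine library 1, saline library 2 or saline library 3 (980, 1519 and 1677 genes at an unadjusted p below 0.05), and 0 without both number 1 libraries (899 genes). With sets summed it also called 0 in each of these fits. At 18 months the 8 genes as deposited became 35 with no filter, 57 by DESeq2, 5 to 21 with 1 library left out and 0 in 1 fit of all 12 libraries (505 at an unadjusted p below 0.05). With sets summed the 2 genes became 28, 50 by DESeq2, 4 under the block, 1 to 15 with 1 library left out and 0 in 1 fit of all 12 (503 at an unadjusted p below 0.05). Replicate numbers were not taken to pair the libraries, since departures from the group means of same-number libraries correlated at -0.124 to 0.0901 at 7 months and at -0.114 at 18 months. The block gave -0.01 for the Tmem181 sum at 7 months, turned the sign of the 2 age values given above and of no other fold change computed with it, and changed no call of a member or sum at 7 months. Adding the 7 further near-identical genes to the sums changed no call of a sum at 7 months. Opposite pairs were 0.402% at 7 months and 0.563% at 18 months once overlapping spans were kept, a choice made after seeing the data, and 0.276% and 1.05% at the looser identity.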
